A study of Rattus with 9 samples.

Results

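The genes described here are 10 cytotoxic granule and effector genes of the rat: the granzymes Gzma, Gzmb, Gzmk and Gzmm, the pore-forming protein gene Prf1, the granule genes Nkg7 and Ctsw, the death ligand gene Fasl, the cytokine gene Ifng and the chemokine gene Ccl5. They were chosen by symbol, 10 of the 23836 symbols in the count matrices. 9 were listed under that symbol, and Fasl was listed as Faslg (matched through its RefSeq synonym), the name used from here on. All 10 had at least 1 UMI (a unique molecular identifier, which marks 1 captured mRNA molecule) in the cells kept, from 337 UMIs for Gzmb to 706669 for Ccl5.

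Natural killer (NK) cells and CD8 T cells store perforin and granzymes in secretory granules and release them onto a target cell. Perforin opens the membrane of the target, and granzymes, a family of serine proteases, enter and cleave proteins that start cell death. The same lymphocytes carry Fas ligand, which triggers the death receptor Fas, and secrete interferon gamma and chemokines such as CCL5, and in liver grafts they are known for attacking bile duct epithelium during rejection.

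The study sequenced single cells of the bile duct of Sprague-Dawley rats, an outbred stock, 6 to 8 weeks old and of both sexes, after sham surgery or after liver transplantation (LT) with warm ischemic injury of the graft. The sham group had 3 samples. The ctrl arm was LT alone, and the treat arm was the same LT with ligation of the splenic and gastroduodenal arteries, which sends more arterial blood to the liver. Each arm had 1 sample at day 1, day 3 and day 7 post-LT, so all ctrl and treat samples share the transplantation and the ischemia. A sham sample was 1 library and an LT sample was 3 libraries, except treat day 3 with 2 (library 1 was not used here). The libraries of a sample were summed, because the labels do not say whether they came from separate rats. In the tests below, a day against sham is the mean of both arms, with the arm difference taken as the same on every day. The p-values measure the spread among sham samples and the departure of the LT samples from such a fit, with the spread of each gene drawn toward that of other genes. The test in CD8 T cells held no sham sample, so its p-values rest on the LT samples alone. No sample of the same arm and day repeats another.

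After filtering, 139759 cells were kept, from 2305 in sham 1 to 31797 in ctrl day 7, with 9291858 to 193054890 UMIs per sample. Hemoglobin-rich barcodes took most of libraries 2 and 3 of ctrl day 3, which kept 424 and 317 cells. At day 7, library 2 of each arm held far fewer T cells than the other libraries of its sample: 4.02% T-like cells against 22.8% and 23.9% in ctrl, and 5.26% against 34.6% and 17.1% in treat. A pair of libraries shared at most 59 cell barcodes, and the highest share of the smaller library in any pair was 1.19%. Clusters were named from marker genes that did not include the 10 genes, for 34 of 41 clusters, and 20711 cells were BEC-like (biliary epithelial). The clustering of all cells left out the 10 genes, other granzyme genes and the listed genes of the same pathway. The classes still came from clusters of the same cells, so differences between cell classes are described and not tested.

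NK-like cells and CD8 T-like cells held the highest levels of most of the 10 genes. Levels are given as CPM, the UMIs of a gene scaled to 1e6 UMIs of the same cells, and are compared between cells or samples and not between genes. Levels over all samples together rest mostly on day 7 for both of these classes. Ctrl and treat day 7 gave 1691 and 1078 of the NK-like cells and 1683 and 1905 of the CD8 T-like cells. Over all samples together, Gzma, a granzyme with trypsin-like specificity, stood at 4193 CPM in NK-like cells and 3630 CPM in CD8 T-like cells, against 147 CPM in T-like cells without a subset name and 46.5 CPM in CD4 T-like cells. The CD4 T-like class joined a sub-cluster of 1551 cells (17.0 CPM of Gzma) and 1 of 956 cells (99.3 CPM) whose leading genes held more markers of regulatory T cells than of CD4 T cells. Gzmk, a related granzyme, stood at 2839 CPM in NK-like and 661 CPM in CD8 T-like cells. Gzmm stood at 3136 CPM in NK-like cells, 384 CPM in T-like cells without a subset name and 274 CPM in CD8 T-like cells. The T-like cells without a subset name also held Cd8a-positive cells: in their sub-cluster led by Ctsw and Klra22 (1599 cells, 1370 CPM of Gzmm), 83.1% of cells had a UMI of Cd8a. These granzymes were thus divided differently between both classes: in the 5 samples with at least 20 cells of each, the levels of Gzmk and Gzmm were higher in NK-like than in CD8 T-like cells in 5 of 5, and those of Gzma in 2 of 5.

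Prf1 stood at 1284 CPM in NK-like and 712 CPM in CD8 T-like cells, and at 105 CPM or less in every other named class. Nkg7, a granule membrane protein needed for granule release, stood at 4198 CPM in NK-like and 3041 CPM in CD8 T-like cells, and Ccl5 at 24602 and 10018 CPM. For Prf1, Nkg7 and Ccl5 the NK-like level was above the CD8 T-like level in 5 of 5 samples. Nkg7 also had 496 CPM in mast or basophil-like cells, where it was found in 29.1% of 175 cells (median 2542 UMIs) and Gzma in 0.571%, against 1.92% for Nkg7 in BEC-like cells (median 6375 UMIs).

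The other 3 effector genes spread further over T-like cells. Ctsw, which encodes the lysosomal protease cathepsin W, stood at 753 CPM in NK-like, 883 CPM in CD8 T-like, 761 CPM in Il17a T-like and 576 CPM in T-like cells without a subset name. Il17a T-like cells carried Ctsw with little of 3 others of the 10 genes: Gzma was at 0.735 CPM, Nkg7 at 16.2 CPM and Ccl5 at 19.8 CPM. Faslg stood at 160 CPM in NK-like, 167 CPM in CD8 T-like and 134 CPM in CD4 T-like cells, and Ifng at 30.9, 47.4 and 27.0 CPM. NK-like cells were above CD8 T-like cells in 2 of 5 samples for Faslg, 1 of 5 for Ifng and 3 of 5 for Ctsw, so these neighbours in the order did not keep 1 direction over samples. Regulatory T-like cells were low for all 10, with 71.4 CPM of Ccl5 and 67.1 CPM of Prf1 as their highest levels.

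**Figure D1:**
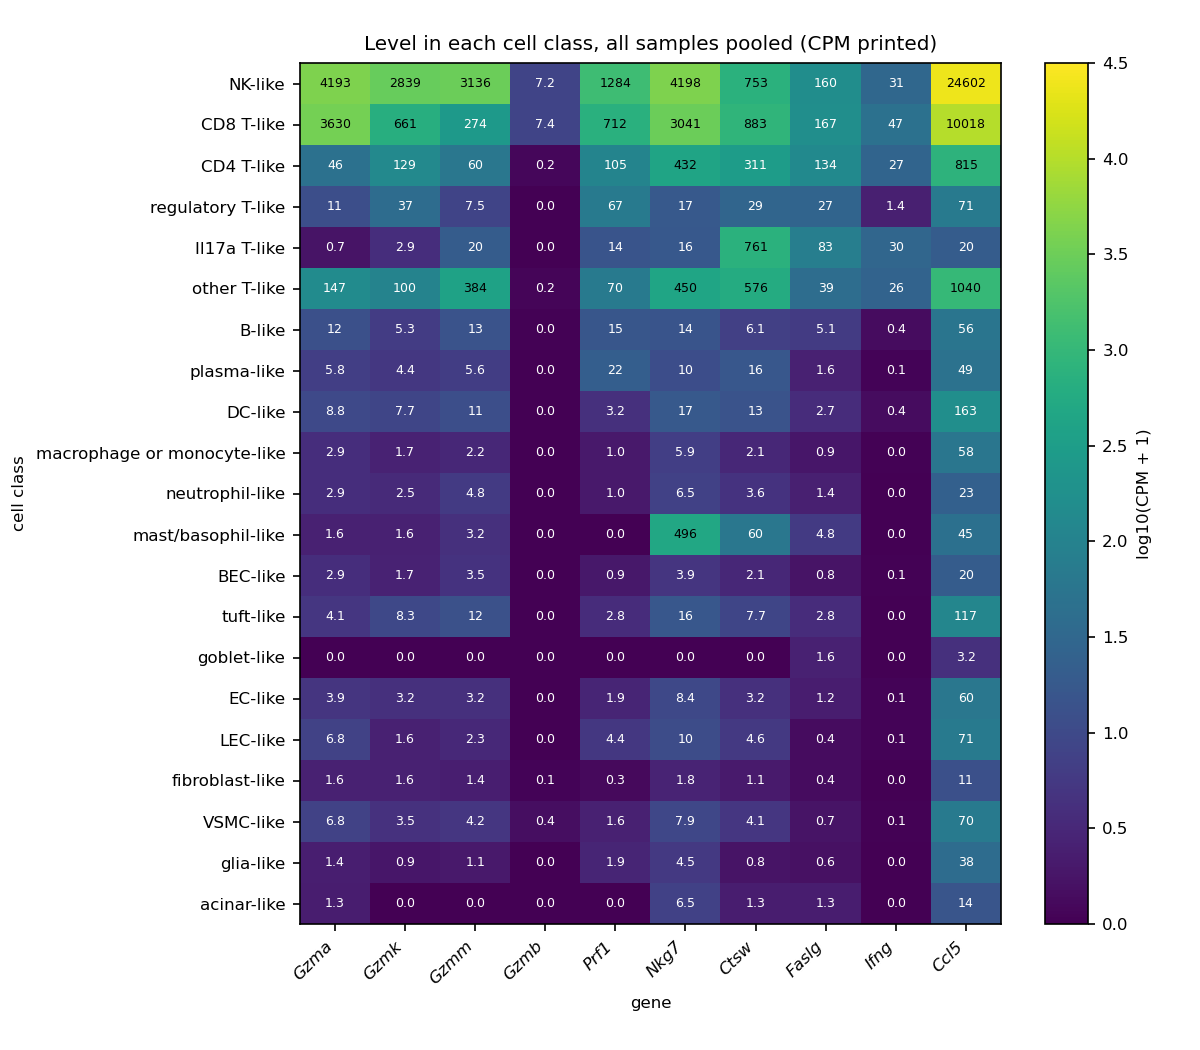
Mean level of the 10 genes (columns, CPM printed in each cell, colour as log10 of CPM + 1) in the 21 named cell classes (rows), all samples pooled and shown without an error. Most NK-like and CD8 T-like cells came from the day 7 samples. Gzma, Gzmk, Prf1, Nkg7 and Ccl5 are highest in NK-like and CD8 T-like cells, Gzmm in NK-like cells and T-like cells without a subset name, Ctsw is also high in Il17a T-like cells (761 CPM), and Nkg7 is at 496 CPM in mast or basophil-like cells.

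Outside lymphocytes most levels were low, Nkg7 in mast or basophil-like cells being an exception among the named classes. Gzma ran from 0 CPM in goblet-like to 8.84 CPM in DC-like (dendritic) cells, and Ccl5 had 19.7 CPM in BEC-like cells and 11.3 CPM in fibroblast-like cells. RNA free in the suspension can give UMIs of a gene in cells that do not express it, and its part in these levels was not tested. In libraries with at least 20 NK-like cells, the profile of empty barcodes was estimated to make up 2.31 to 10.1% of the UMIs of these cells. Libraries with fewer took the median of their other classes, up to 20.3% in library 2 of ctrl day 3. The median over all libraries was 4.64%. Cut to 1000 UMIs per cell, Gzma was found in 55.6% of NK-like cells and 60.5% of CD8 T-like cells, against 0.344% of BEC-like cells (65.4%, 73.5% and 1.62% before the cut). The median depths were 3121, 3856 and 6375 UMIs, and 94, 115 and 947 shallower cells were left out.

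At the same depth and over all samples together, NK-like cells combined more of the genes than CD8 T-like cells. 71.8% of NK-like cells and 32.6% of CD8 T-like cells had a UMI of at least 5 of the 10 genes, against 0.866% of CD4 T-like and 0.0202% of BEC-like cells. Gzma and Prf1, the pair that enters and opens a target, were found together in 37.8% of NK-like and 32.1% of CD8 T-like cells. In NK-like cells the share with at least 5 genes was 30.3%, 18.9% and 25.4% in the sham samples, 55.7% and 48.7% in ctrl and treat day 1, 54.2% and 50.4% at day 3, and 83.4% and 81.5% at day 7. Every LT sample was above every sham sample in this share.

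Gzmb, whose product cuts after aspartate and activates caspases, was almost absent under its own symbol. It had 337 UMIs in all cells, 0 in each of the sham samples, and was found in 1.25% of CD8 T-like and 0.450% of NK-like cells, against 0.0145% of BEC-like cells at the depths given above. Gzmbl2, an annotated granzyme B-like gene, had 56011 UMIs, with 1369 CPM in NK-like and 1177 CPM in CD8 T-like cells, and Gzmbl3 had 9359. How reads shared between such close relatives were counted is not given in the sources used here, so the level of Gzmb itself is uncertain.

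Among T and NK cells clustered on their own, the genes split by sub-cluster. The NK-like sub-cluster led by Gzmk and Gzmm (1144 cells) had 6929 CPM of Gzma and 1974 CPM of Prf1. The other NK-like sub-clusters had 3366 and 1144 CPM of these genes (led by Hbe1 and Gzmm, 992 cells), 1905 and 790 CPM (led by Gzmm and Hbe1, 852 cells) and 2248 and 506 CPM (led by Xcl1 and Art2b, 789 cells). Of the CD8 T-like sub-clusters, the one led by Ccl5 and Lag3 (2329 cells) had 26924 CPM of Ccl5, and the one led by Gzmbl2 and Xcl1 (1287 cells), of which 69.9% had a UMI of the proliferation gene Mki67, had 1211 CPM. Gzma was at 4961 and 2482 CPM in the same cells. The small sub-cluster led by Gzma and Prf1 (449 cells) had 6591 CPM of Gzma and 1798 CPM of Prf1, and 408 of its cells came from ctrl day 7. In the 34 cells from treat day 7 it had 2588 CPM of Gzma, against 6908 CPM in ctrl day 7. Since these genes also led some of the sub-clusters, the values describe the clusters and test nothing.

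**Figure D2:**
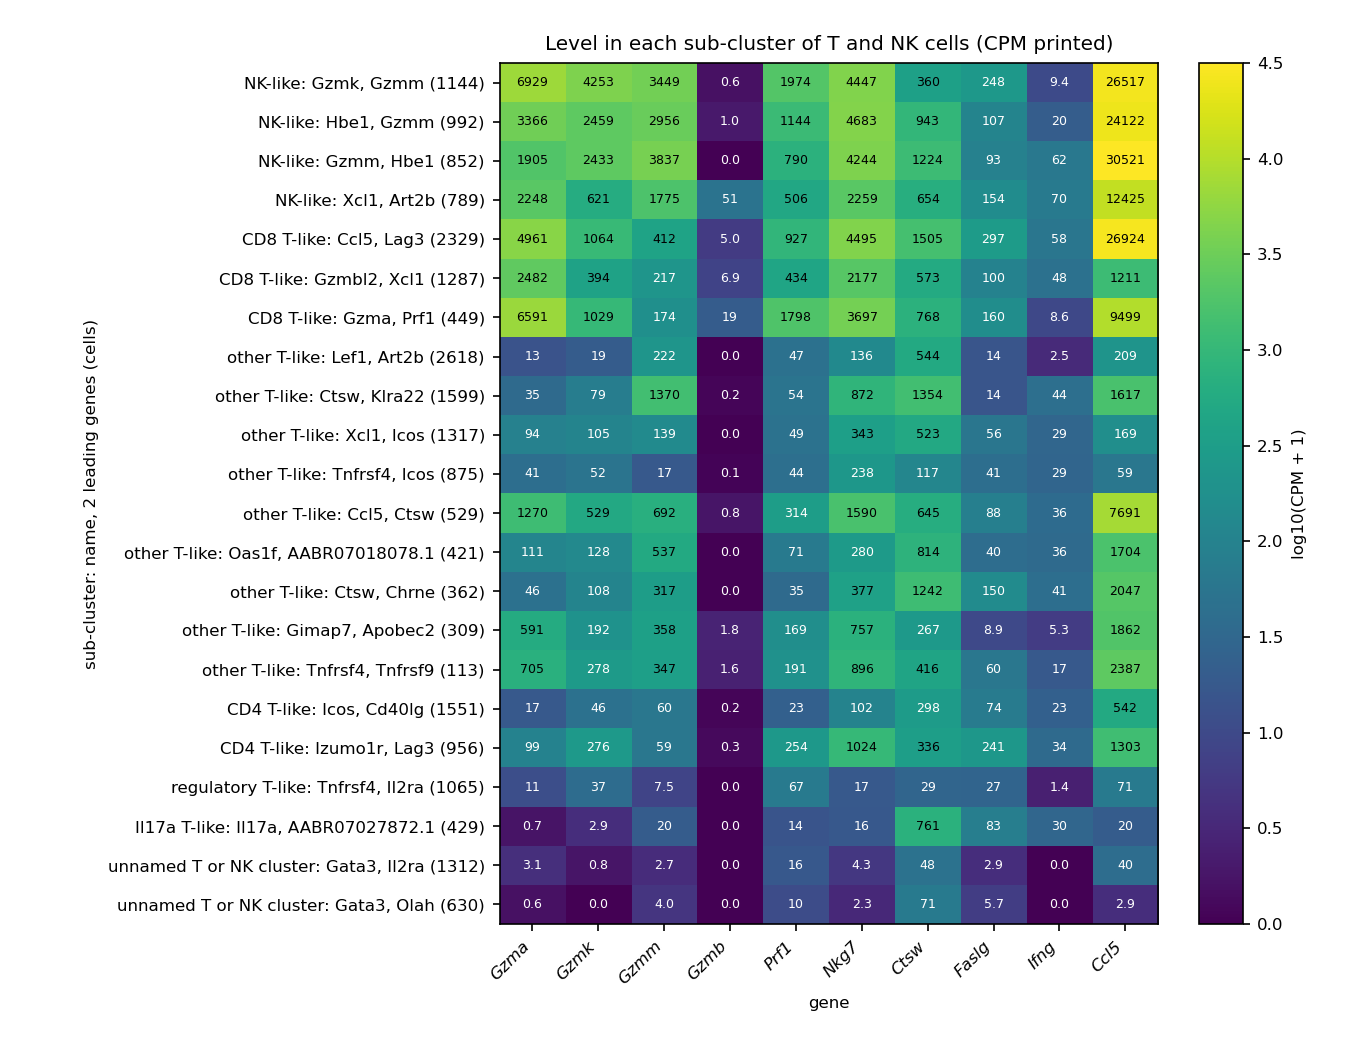
Mean level of the 10 genes (columns, CPM printed, colour as log10 of CPM + 1) in the 22 sub-clusters of T and NK cells (rows, with the name given from markers, the 2 leading genes and the number of cells), all samples pooled and without an error. Ccl5 differs most among CD8 T-like sub-clusters, from 1211 to 26924 CPM, while the Il17a T-like and regulatory T-like rows are dark for Gzma.

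In all cells together, the 10 genes were low in sham ducts and at day 1 and were all higher at day 7 post-LT. In such sums, more cells of a type and more RNA per cell cannot be told apart. Gzma was at 16.9, 3.31 and 5.32 CPM in the sham samples, 12.8 CPM in ctrl and 15.3 CPM in treat at day 1, 49.4 and 177 CPM at day 3, and 490 and 485 CPM at day 7. Prf1 was at 6.56, 1.99 and 2.74 CPM in sham, 5.39 and 4.69 CPM at day 1, 15.9 and 18.3 CPM at day 3, and 145 and 127 CPM at day 7. For both genes the day 1 values lay within the sham range and the values of days 3 and 7 lay above it.

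Nkg7 was at 36.5, 11.4 and 16.0 CPM in sham, 19.3 and 18.8 CPM at day 1, 65.8 and 158 CPM at day 3, and 496 and 484 CPM at day 7. Ccl5 was at 196, 38.1 and 51.5 CPM in sham, 162 and 89.4 CPM at day 1, 107 and 129 CPM at day 3, and 2195 and 2375 CPM at day 7. Ccl5 stayed inside the sham range at both earlier days, while Nkg7 left it at day 3. Gzmk (21.6, 4.23 and 5.39 CPM in sham) reached 192 CPM in ctrl and 222 CPM in treat at day 7, and Gzmm (11.4 to 35.6 CPM) reached 227 and 199 CPM. Ctsw (61.1, 13.9 and 18.1 CPM) reached 171 and 156 CPM. Faslg (5.60, 2.31 and 3.32 CPM) reached 27.0 and 38.1 CPM and Ifng (2.69, 1.28 and 0.621 CPM) reached 5.95 and 9.48 CPM, so that all 10 genes had both day 7 samples above every sham sample.

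**Figure D3:**
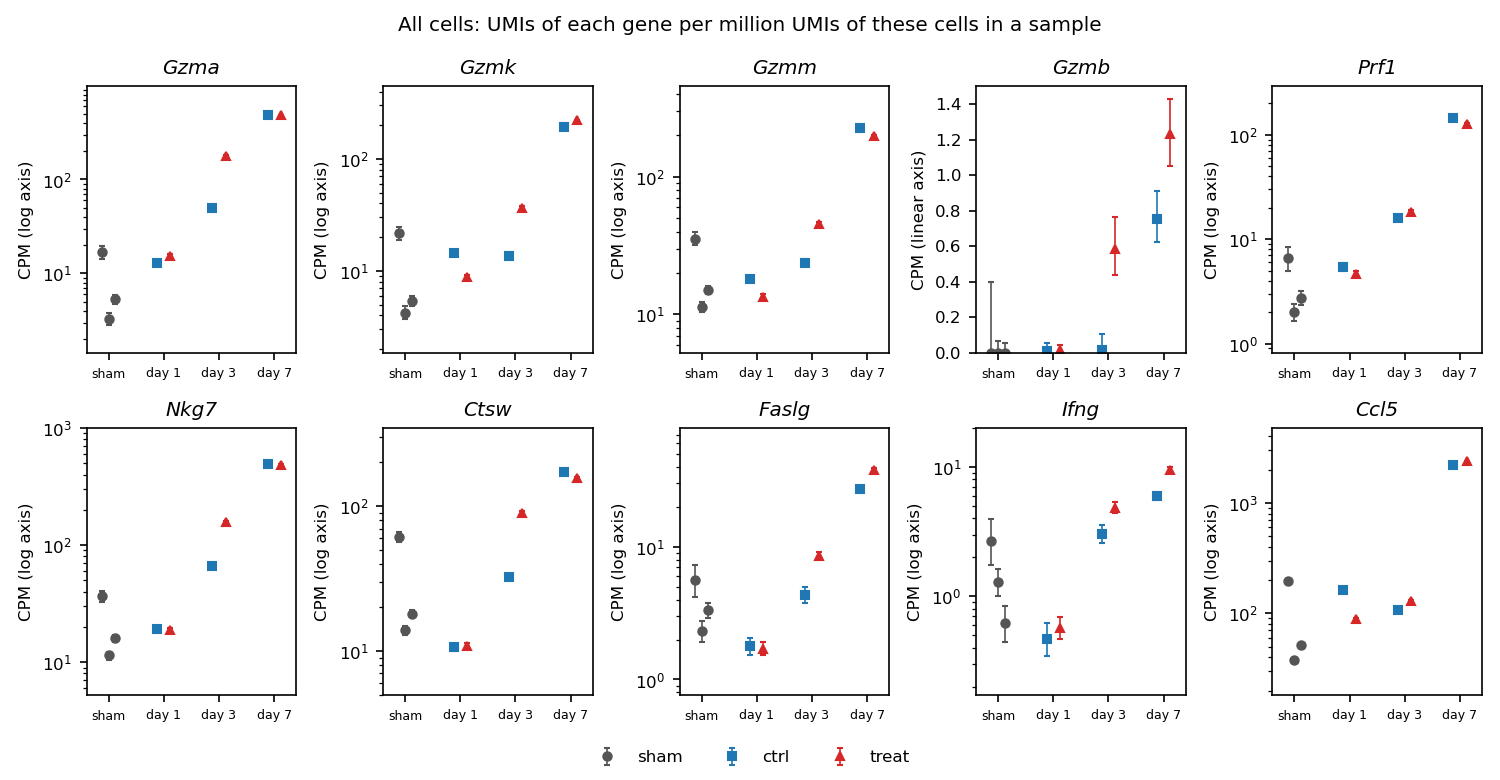
Level of each gene in all cells of each sample (y axis, CPM, log scale, linear for Gzmb) by group (x axis, sham and days 1, 3 and 7 post-LT), with 1 point per sample and bars of the 95% exact Poisson interval, which covers counting error only. Both day 7 samples lie above the 3 sham samples for every gene, and sham 1 is the highest sham sample for each gene other than Gzmb, which had 0 UMIs in all 3.

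At day 7, each of the 9 genes with UMIs in sham was higher than in sham (edgeR quasi-likelihood test on sums per sample, Benjamini-Hochberg adjusted p under 0.05 over 16457 genes), where 6.02% of all genes tested were higher. The log2 difference was 6.30 ± 0.78 (SE) for Gzma (adjusted p = 0.0115), 5.57 ± 0.45 for Prf1 (adjusted p = 0.00573), 4.97 ± 0.69 for Ccl5 (adjusted p = 0.0152) and 4.90 ± 0.53 for Nkg7 (adjusted p = 0.00819). It was 4.72 ± 0.77 for Gzmk, 3.73 ± 0.50 for Gzmm, 3.45 ± 0.37 for Faslg, 2.81 ± 0.64 for Ctsw and 2.72 ± 0.49 for Ifng. Gzmb, at 0.756 and 1.23 CPM, was at least 43.2-fold higher than the limit that 0 UMIs over the sham samples allow (3 counts over the group, 0.0230 CPM), with an adjusted p of 0.0497. It passed the low-count filter only through the samples where it was high, so its call adds nothing to that of the other 9. The median log2 difference of the 10 genes was 4.81, also with Gzmb at that bound, and that of all genes tested was -0.05.

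These calls need both day 7 samples: counted with Gzmb, the test called 10 genes, but without ctrl day 7 it called 0 of the 10, without treat day 7 it called 1, without sham 3 it called 1 and without sham 2 it called 4. The differences stayed above 0 in each of those fits, at 2.26 or more on the log2 scale over all alternatives. Without library 2 of both day 7 samples, which stood apart in T cell share, the count was 10.

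At day 3, 3 genes were higher than in sham, where 4.11% of all genes were: Gzma by 4.02 ± 0.72 (adjusted p = 0.0336), Nkg7 by 2.72 ± 0.50 (adjusted p = 0.0357) and Prf1 by 2.62 ± 0.41 (adjusted p = 0.0251) on the log2 scale. Faslg (1.11 ± 0.36) and Ifng (1.78 ± 0.49) did not pass, with adjusted p of 0.114 and 0.0848. Neither did Gzmk (1.66 ± 0.72), Ctsw (1.31 ± 0.63), Gzmm (1.12 ± 0.48), Ccl5 (0.73 ± 0.63) and Gzmb. The day 3 count was 0 without sham 2, sham 3, either day 3 sample or either day 7 sample, 1 without either day 1 sample, and 9 without sham 1, the sham sample with the fewest cells. At day 1 edgeR called 0 of the 10, with 0 at an unadjusted p under 0.05 and 0 by DESeq2, where 4.19% of all genes changed in either direction. Gzmb aside, the day 1 differences ran from -1.07 ± 0.66 for Ctsw to 1.21 ± 0.67 for Gzma. Without sham 1 the day 1 count was 2.

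The shares of these cells differed as well. NK-like cells were 1.48%, 1.21% and 1.61% of the cells in sham, 1.19% and 1.60% at day 1, 0.641% and 0.744% at day 3, and 5.32% (95% exact binomial interval 5.07 to 5.57) and 4.18% (3.94 to 4.43) at day 7. T-like cells of all kinds were 3.90%, 1.90% and 2.54% in sham, 2.17% and 3.58% at day 1, 6.49% and 15.1% at day 3, and 19.2% and 21.3% at day 7. CD8 T-like cells numbered 5, 4 and 4 cells in the sham samples, 0.217%, 0.0432% and 0.0361%, and were 5.29% and 7.38% of the cells at day 7. NK-like cells were thus fewest at day 3, when T-like cells already exceeded every sham share.

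The cells that held the UMIs also differed by day. In sham, NK-like cells held 77.7%, 72.1% and 90.3% of the Gzma UMIs. At day 3 CD8 T-like cells held 61.2% of them in ctrl and 83.9% in treat, and at day 7 the UMIs were divided, with 37.1% and 45.6% in NK-like and 55.6% and 49.9% in CD8 T-like cells. Gzmm lay mostly in NK-like cells in sham (61.0%, 67.5% and 71.4%) and at day 7 (69.1% and 65.0%). At day 3 they held 47.1% of it in ctrl and 27.7% in treat. CD8 T-like cells held 14.0% and 36.7% of it at day 3 and 4.52% and 12.1% at day 7. Ctsw lay mostly in the other T-like classes in sham (75.5%, 59.8% and 63.3%).

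**Figure D4:**
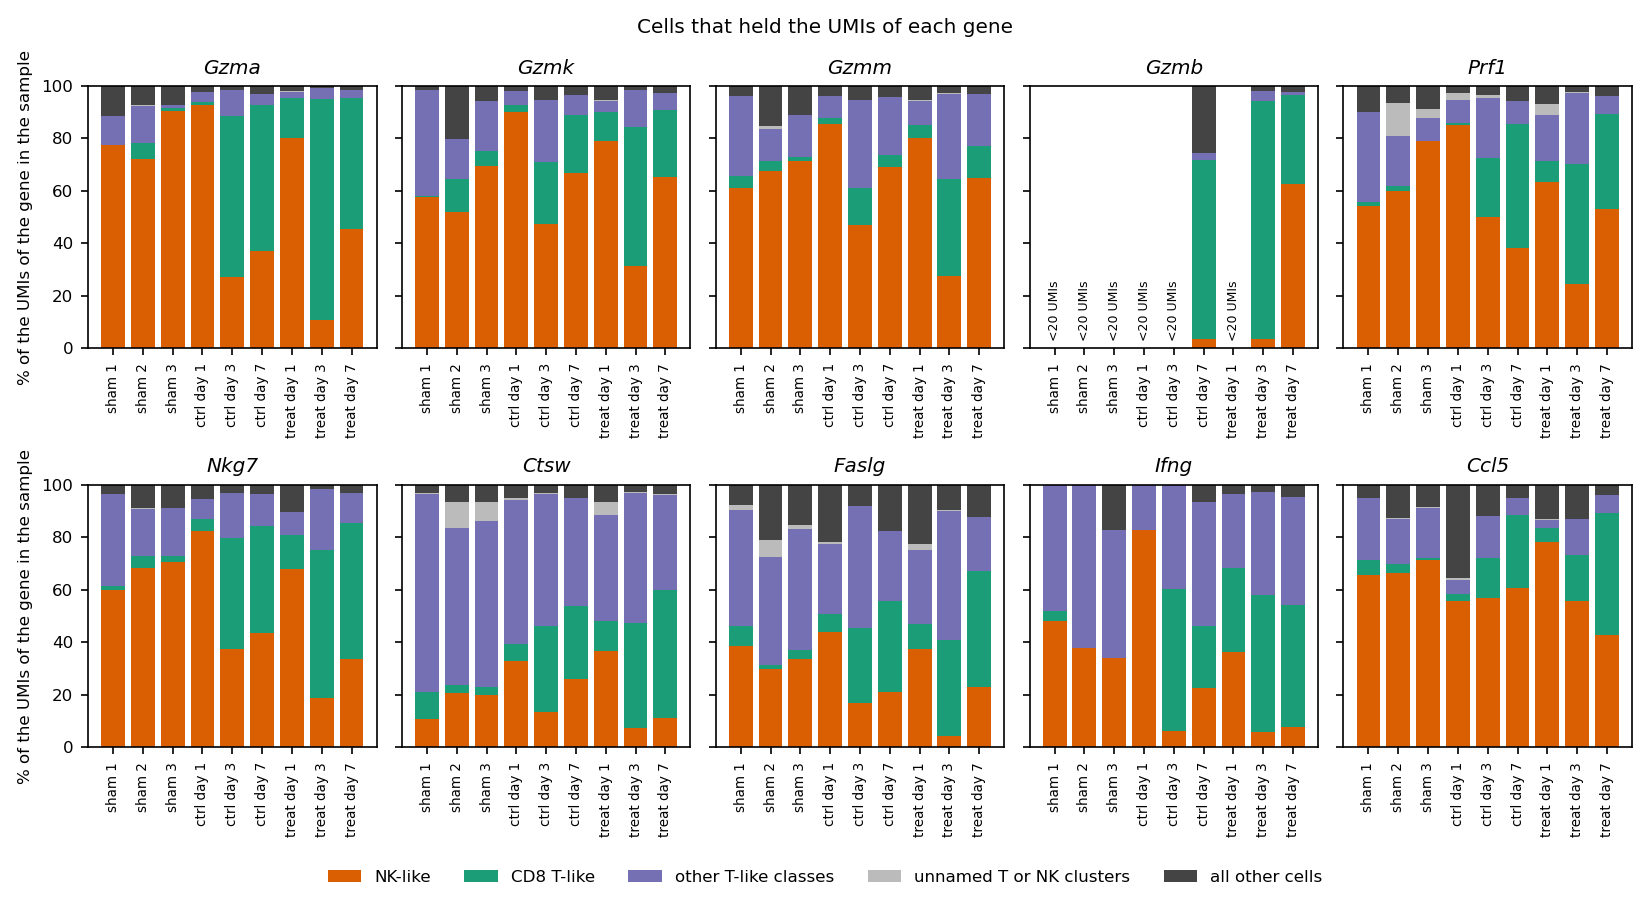
Share of the UMIs of each gene (y axis, %) found in NK-like, CD8 T-like, other T-like, unnamed T or NK and all other cells of each sample (x axis), with bars stacked to 100% and no bar where a sample had under 20 UMIs. CD8 T-like cells hold most Gzma UMIs at day 3 (61.2% and 83.9%), and cells outside T and NK clusters hold 35.4% of the Ccl5 UMIs of ctrl day 1.

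Ccl5 at day 1 came in part from other cells. In ctrl day 1, 35.4% of its UMIs lay outside T and NK cells, and 32.8% lay in 1 unnamed cluster of 344 cells there (led by Tbc1d4, Il7r and S100a5), where Ccl5 stood at 2369 CPM and Gzma at 0. In treat day 1 the same cluster held 9.34% of the Ccl5 UMIs at 742 CPM. The cluster passed 2 markers of dendritic cells, too few for a name. Library 1 carried most of the Ccl5 of ctrl day 1, with 270 CPM in all cells against 24.9 and 84.3 CPM in libraries 2 and 3.

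Within NK-like cells, Gzma was higher than in sham on each day post-LT, and Gzmk, Gzmm, Prf1, Nkg7 and Ccl5 were higher at day 7. Gzma was at 1157, 570 and 845 CPM in sham NK-like cells, 2586 and 2685 CPM in ctrl and treat at day 1, 2071 and 2471 CPM at day 3, and 3909 and 5840 CPM at day 7. Prf1 was at 313, 285 and 381 CPM in sham, 998 and 650 CPM at day 1, 1214 and 568 CPM at day 3, and 1190 and 1785 CPM at day 7. Every LT sample exceeded every sham sample for both genes.

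Ccl5 was at 11329, 6032 and 6484 CPM in sham, 19772 and 15254 CPM at day 1, 9357 and 9106 CPM at day 3, and 28563 and 26899 CPM at day 7. Gzmk was at 1100, 527 and 661 CPM in sham, 2813 and 1520 CPM at day 1, 988 and 1445 CPM at day 3, and 2747 and 3813 CPM at day 7. Both genes were above sham at days 1 and 7, and at day 3 only the treat sample of Gzmk was. Gzmm was even across the sham samples (1915, 1841 and 1888 CPM) and stood at 3391 and 2363 CPM at day 1, 1719 and 1595 CPM at day 3, and 3367 and 3420 CPM at day 7, so it was below every sham sample at day 3. Nkg7 (1924, 1862 and 1981 CPM in sham) was at 3460 and 2785, 3787 and 3757, and 4642 and 4308 CPM at days 1, 3 and 7.

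**Figure D5:**
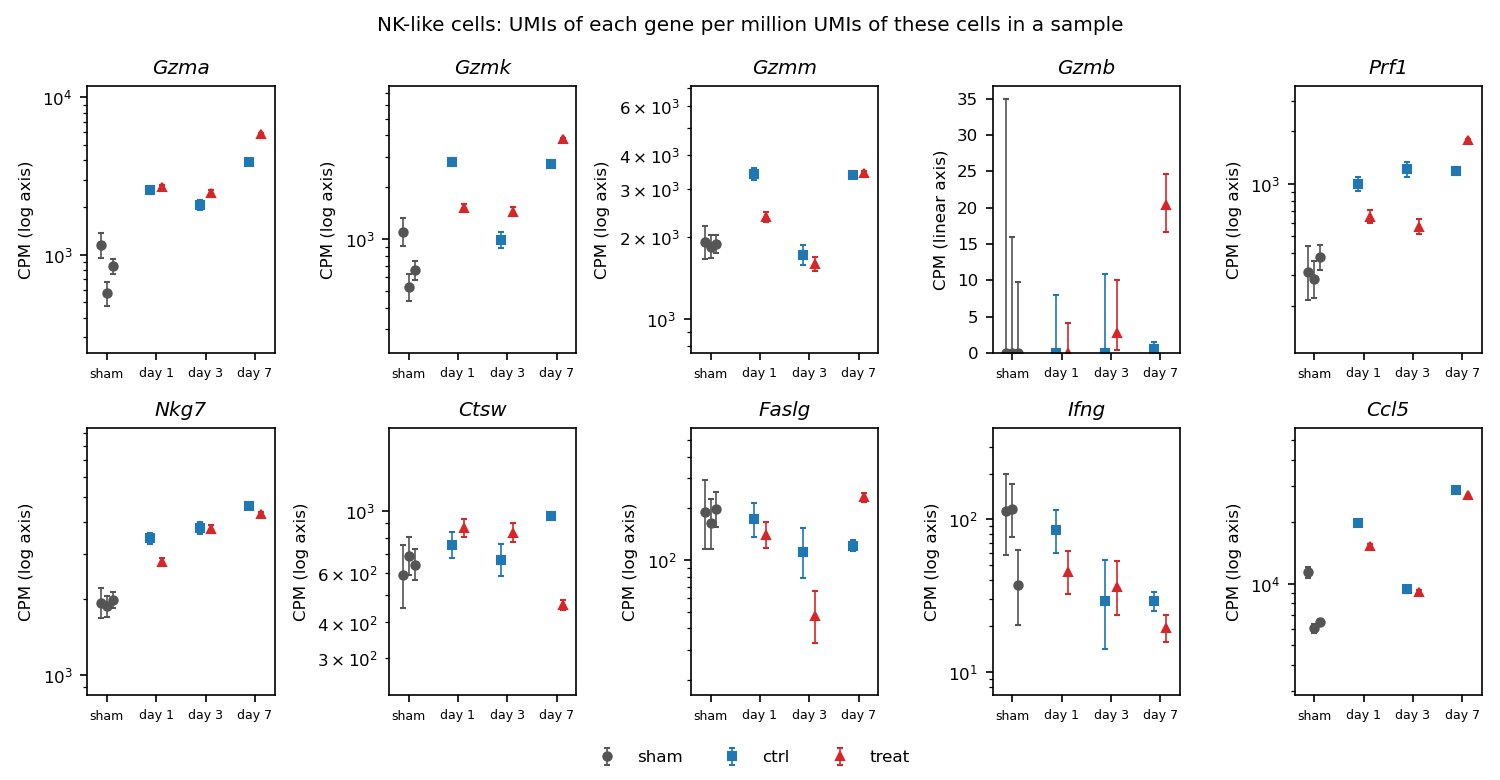
Level of each gene in the NK-like cells of each sample (y axis, CPM of the UMIs of those cells, log scale, linear for Gzmb) by group (x axis), with 1 point per sample and bars of the 95% exact Poisson interval, which covers counting error only. Gzma, Prf1 and Nkg7 lie above the 3 sham samples on every day, Ccl5, Gzmk and Gzmm on days 1 and 7, and Ifng lies below them on days 3 and 7.

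In the test over 5145 genes in NK-like cells, 9 of the 10 genes had enough counts, Gzmb being left out. At day 7, 6 genes were higher, where 4.26% of all genes were: Gzma by 2.60 ± 0.26 (adjusted p = 8.98e-06), Prf1 by 2.30 ± 0.29 (adjusted p = 7.41e-05), Gzmk by 2.22 ± 0.33 (adjusted p = 3.46e-04), Ccl5 by 1.90 ± 0.24 (adjusted p = 7.24e-05), Nkg7 by 1.31 ± 0.20 (adjusted p = 4.45e-04) and Gzmm by 0.94 ± 0.21 (adjusted p = 0.00890) on the log2 scale. Ifng was lower, with a log2 difference of -1.66 ± 0.41 (adjusted p = 0.0173), where 4.88% of all genes were lower. Its levels were 114, 117 and 37.3 CPM in sham and 29.0 and 19.4 CPM at day 7. Ctsw (0.22 ± 0.30) and Faslg (0.02 ± 0.32) did not pass. The calls of Gzma, Prf1 and Ccl5 held in 21 of 21 alternatives, that of Gzmm in 16 and that of Ifng in 13.

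At day 3, Gzma (1.47 ± 0.25), Prf1 (1.39 ± 0.29) and Nkg7 (1.02 ± 0.20) were higher on the log2 scale, where 7.95% of all genes were, with adjusted p of 0.00191, 0.00626 and 0.00451. Faslg was lower by a log2 difference of -1.28 ± 0.37 (adjusted p = 0.0312), where 5.87% of all genes were: it was at 190, 164 and 197 CPM in sham and 111 and 47.3 CPM at day 3. The other 5 genes tested did not pass, with differences from -1.13 ± 0.48 for Ifng to 0.77 ± 0.34 for Gzmk. At day 1, Gzma (1.65 ± 0.25, adjusted p = 0.00386) and Ccl5 (1.14 ± 0.24, adjusted p = 0.0475) were higher, where 0.155% of all genes were. Gzmk (1.56 ± 0.33, adjusted p = 0.0574) and Prf1 (1.29 ± 0.29, adjusted p = 0.0737) did not pass, and the others ran from -0.38 ± 0.43 for Ifng to 0.69 ± 0.20 for Nkg7. The day 1 count of 2 was 0 without sham 2 or ctrl day 1, 1 without sham 3 or without library 2 of both day 7 samples, and 3 to 5 without any 1 of the other samples. Without treat day 3, the day 3 count fell from 4 to 2.

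The sham and day 7 NK-like cells were not of the same sub-cluster. The sub-cluster led by Xcl1 and Art2b made up 79.4%, 87.5% and 92.1% of NK-like cells in sham, 53.6% and 73.1% at day 1, 36.7% and 25.4% at day 3, and 2.37% and 6.12% at day 7. Within this sub-cluster alone (8 samples with at least 20 cells), Gzma (1.83, adjusted p = 0.00788), Ccl5 (1.80, adjusted p = 6.16e-06), Prf1 (1.62, adjusted p = 0.00912) and Nkg7 (1.02, adjusted p = 0.0218) remained higher at day 7 by edgeR on the log2 scale. Gzmk (1.10, adjusted p = 0.0652), Gzmm (0.42, adjusted p = 0.484) and Ifng (-1.64, adjusted p = 0.346) did not pass there. With sub-clusters drawn at a resolution of 0.5 in place of 1.0, Gzma, Gzmk, Prf1 and Ccl5 were called at day 7. Most sham cells lost the NK-like name there: 9, 31 and 23 remained of 34, 112 and 178, so sham 1 was left out. Ctrl and treat day 7 kept 1666 of 1691 and 1056 of 1078. At day 3, ctrl had 18 cells of the sub-cluster led by Xcl1 and Art2b and was left out. Only treat day 3 (31 cells) was set against sham there. The log2 differences were 2.80 for Gzma, 0.80 for Prf1, 0.31 for Nkg7 and -0.92 for Faslg. In cells gated by marker UMIs, the day 3 values were 0.52 for Gzma, 0.13 for Prf1 and -0.09 for Nkg7, none of them called. Faslg was at -2.50 and was called (edgeR, adjusted p = 0.0151). The gate took far more cells than the NK-like class, most of all at day 3. It held 472 and 864 there against 49 and 122, and 78, 260 and 316 in sham against 34, 112 and 178. The part of these added cells in the gated values was not tested.

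Markers of other cells differed between these groups too. The summed level of 6 acinar cell markers in NK-like cells was 114, 938 and 1338 CPM in sham and 0 to 26.1 CPM in the LT samples, and that of 10 BEC markers was 209 to 341 CPM in sham and 48.0 to 233 CPM post-LT. The summed level of 9 T cell markers was 156 to 284 CPM in sham NK-like cells and 107 to 320 CPM post-LT, against 2901 to 5793 CPM in CD8 T-like cells. The summed level of 8 neutrophil markers went the other way, with 19.0, 17.3 and 2.67 CPM in sham NK-like cells and 31.8 to 234 CPM in the LT samples. The part of these in the results was not tested, and after the empty-barcode profile was subtracted the day 7 count in NK-like cells was 7, as before.

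CD8 T-like cells could not be compared with sham, since no sham sample held 20 of them. Ccl5 stood at 3103 CPM in treat day 1 (35 cells), 1377 CPM in ctrl day 3 (40 cells), 504 CPM in treat day 3 (378 cells), 9583 CPM in ctrl day 7 (1683 cells) and 15156 CPM in treat day 7 (1905 cells). The day 7 values rested largely on library 1 of each sample: by library, Ccl5 stood at 14566, 1504 and 5827 CPM in ctrl and 19567, 2852 and 9258 CPM in treat. Gzma stood at 1490, 2534, 3327, 4248 and 3322 CPM in the same samples, and Prf1 at 242, 301, 188, 1066 and 629 CPM. In both arms Ccl5 and Prf1 were lower at day 3 than at day 7, while Gzma in treat differed between the day 3 libraries, with 3979 CPM in library 2 and 2032 CPM in library 3, and ran from 3103 to 3746 CPM in the day 7 libraries. The sub-cluster with Mki67 made up 82.5% and 96.0% of CD8 T-like cells at day 3 and 25.1% and 23.4% at day 7, and its part in these values was not tested.

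All T-like cells together were compared with sham in place of them, a selection made after seeing the data. Gzma was at 50.7 and 84.5 CPM in the T-like cells of sham 1 and sham 2 and lower in those of sham 3, 66.0 and 151 CPM at day 1, 453 and 920 CPM at day 3, and 1652 and 1370 CPM at day 7. Ccl5 was at 1585, 997 and 980 CPM in sham, 1419 and 430 CPM at day 1, 434 and 238 CPM at day 3, and 4255 and 6766 CPM at day 7. The genes parted at day 3, with Gzma above sham and Ccl5 below it.

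At day 3, 3 genes were higher in T-like cells, where 8.58% of 9800 genes were: Gzma by 3.93 ± 0.46 (adjusted p = 1.13e-04), Prf1 by 1.06 ± 0.33 (adjusted p = 0.0411) and Nkg7 by 1.00 ± 0.22 (adjusted p = 0.00716) on the log2 scale. 3 genes were lower, where 7.50% of all genes were: Ccl5 (-1.78 ± 0.37, adjusted p = 0.00506), Ctsw (-1.43 ± 0.31, adjusted p = 0.00663) and Faslg (-1.42 ± 0.33, adjusted p = 0.00922). Gzmb and Gzmk, Gzmm and Ifng (-0.46 ± 0.34, -0.59 ± 0.29 and -0.70 ± 0.42) did not pass. The day 3 call of Gzma held in 20 of 20 alternatives, that of Ccl5 in 18, Ctsw in 17, Faslg in 16, Nkg7 in 15 and Prf1 in 10. In cells gated by marker UMIs, Ccl5 (-0.90), Ctsw (-0.29) and Faslg (-0.21) were not called. At day 7, 4 genes were higher, where 2.38% of all genes were: Gzma by 5.13 ± 0.47, Prf1 by 3.09 ± 0.33, Ccl5 by 2.33 ± 0.35 and Nkg7 by 2.24 ± 0.22, with adjusted p of 1.61e-05, 3.63e-05, 7.02e-04 and 1.99e-05. Gzmk (1.07 ± 0.33, adjusted p = 0.0707) did not pass, nor did Gzmb, and the others ran from -0.81 ± 0.30 for Ctsw to 0.34 ± 0.28 for Gzmm. At day 1 edgeR called 0 of the 10, with 1 by DESeq2, where 0.633% of all genes changed, and 5 were at an unadjusted p under 0.05, as were 1194 of the 9800 genes tested. Gzmb aside, the day 1 differences ran from -1.91 ± 0.49 for Ifng to 1.19 ± 0.48 for Gzma. The day 1 count of 0 was 1 without sham 1 and 2 without ctrl day 1, ctrl day 3 or treat day 3. The day 3 count of 6 was 3 without sham 3 or ctrl day 3, and the subsets that make up T-like cells differed between the days.

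The treat and ctrl arms did not differ detectably in any of the 10 genes, in a test that took the arm difference as the same on every day. edgeR called 0 of 10 in all cells, where 0% of all genes were called, with 0 at an unadjusted p under 0.05 and 0 by DESeq2. The log2 difference, treat minus ctrl, was 0.63 ± 0.63 for Gzma, -0.11 ± 0.36 for Prf1, -0.21 ± 0.58 for Ccl5 and 0.43 ± 0.32 for Faslg, and it lay from 0.05 ± 0.44 for Gzmm to 0.50 ± 0.43 for Ifng in the others, Gzmb aside. The log2 ratio of treat to ctrl in CPM at days 1, 3 and 7 was 0.26, 1.84 and -0.01 for Gzma. It was 0.04, 1.48 and -0.13 for Ctsw and -0.20, 0.21 and -0.19 for Prf1. At day 3 the ratio was above 0 for every gene other than Gzmb, for which none was formed. That day Gzma was at 49.4 CPM in ctrl and 177 CPM in treat. CD8 T-like cells were 0.523% and 2.30% of the cells, but each arm had 1 sample that day. Within treat day 3 itself, Gzma was at 278 CPM in library 2 and 76.3 CPM in library 3.

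In NK-like cells 0 of 9 genes were called between the arms, where 0% of all genes were, with 0 at an unadjusted p under 0.05 and 0 by DESeq2. The differences ran from -0.53 ± 0.34 for Ifng to 0.32 ± 0.22 for Gzma on the log2 scale. None of the 9 was called in any of 21 alternatives. Without ctrl day 3 the count was 1, which was Gzmb, a gene outside the 9. The CD8 T-like fit had 5 samples, none of them sham, and 1 residual degree of freedom, so its p-values rest largely on spread shared between genes. There, 0 of 10 were called, where 0.142% of all genes were, with 2 at an unadjusted p under 0.05 and 0 by DESeq2. Those were Gzmm (0.82 ± 0.26, adjusted p = 0.342) and Prf1 (-0.66 ± 0.27, adjusted p = 1.000), and 294 of the 9826 genes tested were at an unadjusted p under 0.05. The others ran from -0.31 ± 0.39 for Ccl5 to 0.51 ± 0.27 for Gzmk. In all T-like cells 0 of 10 were called, where 0.0306% of all genes were, with 0 at an unadjusted p under 0.05 and 0 by DESeq2. Gzmb aside, the differences ran from -0.66 ± 0.33 for Ccl5 to 0.60 ± 0.37 for Gzma.

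Other genes of the same pathway, 67 listed by role, moved in part with the 10. In all cells, 29 of the 62 tested were higher at day 7, 21 were higher at day 3 and 6 at day 1, where 6.02%, 4.11% and 3.15% of all genes tested were. At day 7 the genes with the lowest adjusted p included Gzmbl2 (5.76 ± 0.44 on the log2 scale), Gzmbl3 (5.33 ± 0.42) and the interleukin-21 receptor gene Il21r (3.62 ± 0.21). The others were the interleukin-2 receptor gene Il2rb (3.50 ± 0.32), Cst7, which encodes the inhibitor cystatin F (3.47 ± 0.27), and Stx11, a syntaxin of granule fusion (3.21 ± 0.27). The largest fitted difference among the called genes was that of Il21 (7.40 ± 1.13), which also had the largest SE of them. Whether Il21, or the granzyme relative Gzmf with 717 UMIs over all cells, passed the low-count filter only through samples where it was high was not tested. By role, 3 of 3 granzyme relatives tested, 3 of 5 genes of granule storage and protease control, 1 of 7 of granule exocytosis, 0 of 5 death ligands and receptors, 3 of 6 transcription factors and 9 of 14 cytokines and cytokine receptors were higher at day 7. So were 4 of 8 chemokines and receptors and 5 of 8 genes of adhesion and activation. The genes already higher at day 1 were Cst7, Stx11, Il15ra, Il21r, Il18rap and Ccr1. Within NK-like and T-like cells, 0 of 40 and 0 of 55 were called at day 1, where 0.369% and 0.633% of all genes were. Neutrophil-like cells were 2.95%, 0.0540% and 0.0812% of the cells in sham and 26.4% and 12.1% at day 1. Their part in the day 1 values was not tested.

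Within NK-like cells, 8 of 40 genes of this list were higher and 3 lower at day 7, where 4.26% and 4.88% of all genes were. The checkpoint receptor gene Lag3 (3.93 ± 0.40), Gzmbl2 (2.52 ± 0.25), the transcription cofactor gene Hopx (2.17 ± 0.27) and Gzmbl3 (1.87 ± 0.39) were higher on the log2 scale. The chemokine gene Xcl1 (-2.16 ± 0.25) and the activating receptor gene Cd226 (-1.70 ± 0.32) were lower, as was the death ligand gene Tnfsf10 (-2.07 ± 0.59), named after its value was seen. At day 3, 4 of 40 were higher (Gzmbl2, Hopx, Lag3 and Serpinb9, the inhibitor of granzyme B) and 2 lower (Ifngr1 and Xcl1), shares near the 7.95% and 5.87% of all genes. In T-like cells, 10 of 55 were higher and 3 lower at day 7, where 2.38% and 3.52% of all genes were. Lag3 (5.24 ± 0.31) had the lowest adjusted p of these. At day 3, 6 were higher and 4 lower, shares near the 8.58% and 7.50% of all genes. Between the arms, 1 of the 56 genes of the list tested in CD8 T-like cells was called, where 0.142% of all genes were: Gzmbl3 (-1.68 ± 0.30, adjusted p = 2.93e-05, lower in treat). In the same cells, the sub-cluster led by Gzma and Prf1 made up 24.2% of ctrl day 7 and 1.78% of treat day 7, and its part in this difference and in that of Prf1 was not tested.

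Over the 21 named classes, the gene most like each of the 10 was found by Pearson's r of log2(mean CPM + 10). It was 0.983 for Gzma with Ly49s6, 0.967 and 0.965 for Gzmk and Gzmm with Il12rb2, 0.936 for Prf1 with Il12rb2, and 0.930 for Ccl5 with Ly49s6. It was 0.970 for Nkg7 with Gzmbl2, 0.986 for Ifng with Xcl1, 0.991 for Faslg with Sh2d2a, 0.951 for Ctsw with Klrd1 and 0.971 for Gzmb with Slc27a2. Among the 10 themselves, Gzmk and Prf1 were at 0.963, and the lowest was Ctsw with Gzmb at 0.560. Each gene most alike was picked from 9442 candidates, which needed a mean of at least 20 CPM in some class. Gzmb had 337 UMIs in all cells, so its values here rest on few counts. The classes share libraries and depth, so these values are descriptions.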

How the data were processed

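Single-cell UMI counts of 9 samples in 20 libraries were analysed. The authors deposited raw counts per gene and barcode; the submitters' processing notes name Cell Ranger 5.0.1 and Seurat 3.2.0, while the matrix headers name Cell Ranger 4, and the genome build is not given in the sources used here. Reads multi-mapped between close relatives may be missing from such counts. A barcode was kept as a cell if it had over 400 but below 6000 genes, a mitochondrial share below 25% and a hemoglobin share below 3%, and 10631 likely doublets of 150390 were removed. Cells were clustered (2000 variable genes, 30 components, Leiden 0.9, leidenalg 0.10.2), T and NK cells again (1500 genes, 20 components, Leiden 1.0), and named from markers. Shares in thinned cells used 1000 UMIs per cell.

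Counts were summed per sample (at least 20 cells) and tested with edgeR 4.0.16 in R 4.3.3 (TMM, filterByExpr, quasi-likelihood, two-sided, terms for day and arm), adjusted over all genes by Benjamini-Hochberg. The all-cells fit had 4 residual degrees of freedom. DESeq2 1.42.0 and other settings were alternatives. Counts for day 7 against sham were simulated with the same assumed spread for every gene, not estimated from these data. In all cells, 74.0% of 4-fold changes and 7.00% of 2-fold changes were recovered over 16457 genes. In NK-like cells, 65.0% and 9.00% were recovered over 5145 genes. Recovery for genes with another spread was not tested. The SE printed with a log2 difference was its size divided by the square root of the F statistic of the edgeR test. Intervals cover counting error only. All 10 members are covered in each comparison, by value or range (Gzmb without a fitted fold), with up to 6 genes of the pathway list by lowest adjusted p. The members and gene lists were chosen with earlier results of these data known. The result of 1 role group of the pathway list is not reported here, though its genes are in the counts over the whole list.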

Additional observations from a re-analysis of the deposited data

Results flagged for a closer look

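At day 1 against sham, 3 genes lay on opposite sides of the sham samples in NK-like and all T-like cells, with both LT samples above every sham sample in NK-like cells and both below every sham sample in T-like cells. The log2 ratio of the mean CPM was 0.61 in NK-like and -0.83 in T-like cells for Gzmm, 0.70 and -0.48 for Nkg7, and 0.34 and -1.28 for Ctsw. The T-like cells were of differing subsets. The sub-cluster led by Ctsw and Chrne had 3 of 90, 105 of 176 and 216 of 282 T-like cells in sham. At day 1 it had 2 of 280 in ctrl and 5 of 807 in treat. The NK-like sub-clusters also differed in share, as given above. The part of these shifts and the difference between the cell classes were not tested.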

How the results depend on the processing

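Of 707 alternative values of the 36 member differences that passed the test, 547 kept direction and call, 159 kept direction without the call and 1 turned. Of 1687 values of the 90 that did not pass, 57 gained a call, 1 gained a call with the opposite sign and 111 changed sign uncalled. In all cells, the day 3 count of 3 became 0 without TMM (library size alone), 6 by DESeq2 and 0 with sham and ctrl samples only, where the day 7 count of 10 was also 0. In NK-like cells, the day 1 count of 2 became 4 without a low-count filter or with sham and ctrl only, 1 with DESeq2, without the hemoglobin limit, without doublet removal, with the empty-barcode profile subtracted or without library 2 of day 7, and 0 with each library as a sample, marker-gated cells or sub-clusters at a resolution of 0.5. The day 3 count of 4 became 2 with each library as a sample and 1 with gated cells or at that resolution. The day 7 count of 7 became 4 at that resolution and within the sub-cluster led by Xcl1 and Art2b. The arm count of 0 became 1 without a low-count filter, through Gzmb, which the filter had left out. In T-like cells, the day 1 count of 0 became 1 with library size or DESeq2, 4 without a low-count filter and 2 with each library as a sample. The day 3 count of 6 became 3 with each library as a sample, gated cells or a resolution of 0.5, and the day 7 count of 4 became 7 with gated cells. With gated cells Nkg7 in NK-like cells at day 3 was at -0.09 (adjusted p = 0.916, edgeR) and Faslg in T-like cells at day 7 at 1.21 (adjusted p = 0.0178). At day 3 the NK gate took 472 and 864 cells against 49 and 122 NK-like cells. The cause of either gated value was not tested. Without 1 sample at a time, counts ran from 0 to 2, 0 to 9 and 0 to 10 in all cells at days 1, 3 and 7, from 0 to 5, 2 to 5 and 5 to 7 in NK-like cells (0 to 1 between arms), and from 0 to 2, 3 to 6 and 4 to 6 in T-like cells. In CD8 T-like cells, 4 of those fits and the resolution of 0.5 could not be fitted. No paired analysis was possible because the LT samples carry no replicate numbers; the arms were matched by day through the day term of the test. Sums of few NK-like cells, 34 in sham 1 and 49 in ctrl day 3, limit the low genes.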

Other observations

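An unnamed cluster of 1762 cells led by AABR07000398.1, Prkch and Slc27a2 carried the death ligand gene Faslg at 504 CPM, against 160 CPM in NK-like and 167 CPM in CD8 T-like cells, and held 8.06% of all Faslg UMIs. It also had 498 CPM of Prf1 and 676 CPM of Gzma. 919 of its cells came from ctrl day 7 and 620 from treat day 7. Its median UMI count was 0.235 of that of its samples. By share of markers detected, its nearest list was erythroid (3 markers) and the second was T cells (4 markers). Neither list had a marker among its leading genes, and the T cell marker gene Cd3e stood at 339 CPM. The cluster was left without a name.

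The few Gzmb UMIs of NK-like cells lay mostly in 1 library of treat day 7: library 3 held 101 of them (37.0 CPM), and libraries 1 and 2 held 1 and 2 (0.867 and 1.63 CPM). Over the 3 libraries the NK-like cells stood at 20.3 CPM, and the 66 of them in the sub-cluster led by Xcl1 and Art2b stood at 352 CPM. The same sub-cluster had 11.7 CPM in treat day 3 and 0 in each sham sample and in ctrl day 7.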
